A study of Mus musculus with 8 samples.

Results

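Plekhb1, Mag, Lhfpl3 and Agt are genes best known from the glia of the brain, and their transcripts were followed here in the hippocampus of wild-type and Jade2-knockout mice. Members were the rows of the deposited table that carry 1 of these 4 gene symbols, together with unnamed rows at the same loci. By this rule 4 of 1679 transcripts were found, 2 of Plekhb1, 1 of Mag and 1 of Lhfpl3, with 0 unnamed rows at their loci. No row of those analysed carries the symbol Agt. A merged transcript model that lies on Agt by position and strand is described beside the members and is not counted among them. The members were selected on the authors' p and fold change for this same contrast, with which the table was made, so their values are given as a description with no test.

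The control group was 4 hippocampal libraries from wild-type mice and the comparison group 4 from Jade2-knockout mice, each of strain C57BL/6 and 8 weeks old. Jade2 encodes a chromatin protein with PHD fingers that binds the HBO1 histone acetyltransferase complex, and the labels do not give the deletion's design or say whether it is limited to a cell type. They also leave unsaid whether each library comes from its own mouse, so the spread between libraries may be partly technical.

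Every row of the table has an authors' unadjusted p of at most 0.0498, and the smallest fold change in it is 1.00 on the log2 scale. The adjusted p-values imply 104721 tested transcripts, so 1.60% of them are listed, 0.778% as higher and 0.825% as lower in the knockout. Abundances are taken as FPKM, a level per transcript length and library size, and the depth behind each value is unknown. The median of the listed values ranged from 0.773 to 0.900 FPKM over the libraries. The annotated Jade2 transcript ENSMUST00000109091 was listed at 0 in the 4 knockout libraries and stood between 1.41 and 5.05 FPKM in the controls, while the merged Jade2 model MERGE.3721.1 was listed at 0 in the controls and stood between 3.59 and 12.3 FPKM in the knockouts.

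Oligodendrocytes wrap axons in myelin, and they arise from precursor cells that persist in the adult brain. Mag encodes myelin-associated glycoprotein, a sialic acid-binding adhesion protein of the innermost myelin wrap that faces the axon. Plekhb1 encodes a membrane-anchored pleckstrin homology domain protein, also called evectin-1, that is found in photoreceptors and is abundant in myelinating cells. Lhfpl3 encodes a tetraspan membrane protein whose RNA is used as a marker of oligodendrocyte precursors. Agt encodes angiotensinogen, the precursor of the angiotensin peptides, which astrocytes make in the brain.

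Alternative exons distinguish the listed transcripts from sister transcripts of the same genes, and they are shown because the abundances below belong to these forms and not to whole genes. Coordinates are on mm10 (GRCm38), the exons are those of GENCODE M21, and each sequence is the transcript strand 5′ to 3′. In the first 4 lines capitals mark the alternative exon and lower-case letters are 15 bases of each neighbouring exon. In the last line capitals mark the end of the reading frame with its stop codon, after 30 bases of the preceding exon.
Plekhb1 ENSMUST00000107045, exon at chr7:100649928-100650032 included: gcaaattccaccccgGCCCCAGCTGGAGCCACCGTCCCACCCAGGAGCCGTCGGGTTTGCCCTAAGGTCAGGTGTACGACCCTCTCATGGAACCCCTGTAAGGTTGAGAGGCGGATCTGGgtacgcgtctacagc
Plekhb1 ENSMUST00000107046, exon skipped: gcaaattccaccccggtacgcgtctacagc
Mag ENSMUST00000040548, exon at chr7:30900352-30900396 included: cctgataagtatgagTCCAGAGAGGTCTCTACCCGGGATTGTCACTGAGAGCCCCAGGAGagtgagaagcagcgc
Mag ENSMUST00000191081, exon skipped: cctgataagtatgagagtgagaagcagcgc
Lhfpl3 ENSMUST00000197992, end of the frame at chr5:23221865-23221881: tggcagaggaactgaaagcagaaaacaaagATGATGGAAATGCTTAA

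The Plekhb1 exon is 105 bases long and adds 35 codons in frame, so the including form ENSMUST00000107045 (chr7:100643898-100656980, minus strand, 7 exons) codes for 224 codons. The skipping form ENSMUST00000107046 (chr7:100642892-100656953, minus strand, 6 exons) codes for 189 and runs 1006 bases further at its 3′ end. The Mag exon is the 11th of 12 in ENSMUST00000040548 (chr7:30899183-30914327, minus strand). It is 45 bases long, and 30 of these are coding before an in-frame TGA. Including it ends the frame at 582 codons, while the skipping transcript ENSMUST00000191081 continues to 627. The 582-codon frame is that of the small form of myelin-associated glycoprotein, S-MAG, whose cytoplasmic tail differs from that of the large form, L-MAG. The same frame is annotated for ENSMUST00000187137, which starts further upstream and is not among the listed transcripts. The Lhfpl3 transcript (chr5:22746059-23275597, plus strand, 4 exons) codes for 228 codons and ends its frame 14 bases into a 48-base exon that the other annotated Lhfpl3 transcript lacks.

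**Figure D1:**
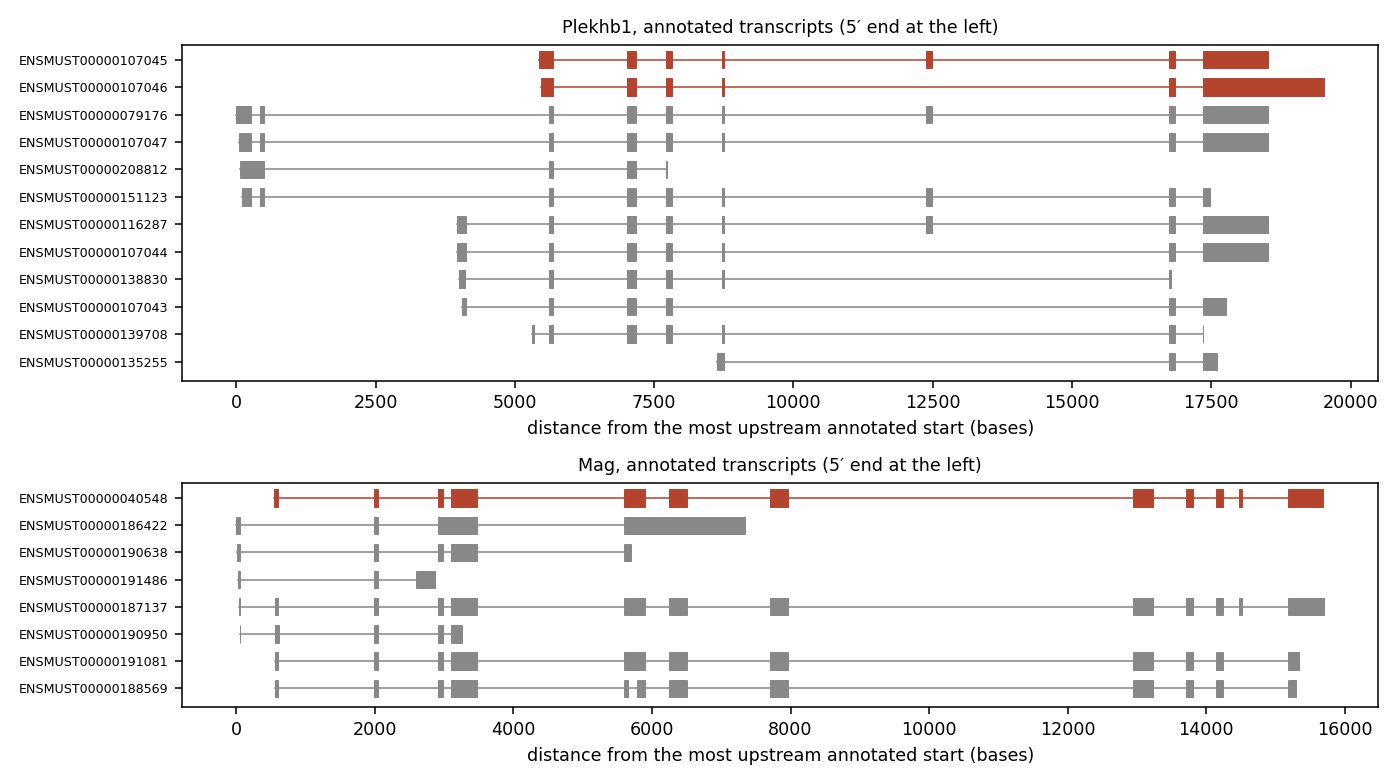
Annotated transcripts of Plekhb1 and Mag drawn to scale, with exons as boxes, introns as lines and the distance in bases from the most upstream annotated start on the horizontal axis. Listed transcripts are red and the others grey. The listed Plekhb1 transcripts begin 5434 or 5461 bases downstream of the most upstream start. They differ by 1 internal exon, by their 3′ ends and slightly by their 5′ ends.

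Both listed Plekhb1 transcripts also begin close together, the including form at position 100656980 and the skipping form at 100656953. Of the 12 annotated Plekhb1 transcripts, the 2 listed ones start 15 and 12 bases from a RefSeq start site at position 100656965, and they lie 5414 and 5441 bases from the other RefSeq start site of the gene. The 250 bases before the downstream Plekhb1 start site (RefSeq, GRCm38.p6, minus strand) are printed because both listed forms start near it. The including form starts 15 bases before that site, inside the window. The 250 bases before the middle of 3 RefSeq Mag start sites are printed because they hold a match to a myelin factor motif. Those before the Agt start site are printed because the merged model leaves out that start. The searched motifs were TATAAA, a core promoter element, CTGGCAC, a form of the site of the myelin regulatory factor Myrf, ACAAAG, bound by SOX factors, GGGCGG, the GC box, and CANNTG, the E-box, each on both strands. Capitals mark matches to the first 4 of these.
Plekhb1 downstream start, chr7:100656966-100657215: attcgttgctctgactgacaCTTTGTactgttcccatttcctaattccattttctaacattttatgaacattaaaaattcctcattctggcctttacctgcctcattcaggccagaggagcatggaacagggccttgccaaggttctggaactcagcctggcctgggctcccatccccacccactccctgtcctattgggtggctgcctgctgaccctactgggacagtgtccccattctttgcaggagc
Mag middle start, chr7:30914864-30915113: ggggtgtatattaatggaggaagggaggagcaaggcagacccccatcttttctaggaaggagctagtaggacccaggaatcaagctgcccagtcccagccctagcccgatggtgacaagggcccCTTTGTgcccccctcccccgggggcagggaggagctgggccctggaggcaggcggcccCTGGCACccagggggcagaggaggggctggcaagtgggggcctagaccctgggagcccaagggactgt
Agt start, chr8:124569707-124569956: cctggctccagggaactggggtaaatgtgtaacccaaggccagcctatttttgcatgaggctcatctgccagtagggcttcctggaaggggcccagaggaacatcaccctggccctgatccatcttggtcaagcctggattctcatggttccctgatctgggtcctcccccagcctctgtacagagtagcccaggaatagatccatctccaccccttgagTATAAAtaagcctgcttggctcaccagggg

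The Plekhb1 window holds 1 SOX core match, which 16.5% of 32851 promoter windows of this length also hold. The Mag window before the middle start site, at position 30914863, holds 1 SOX core match and 1 CTGGCAC, and 4.19% of windows hold CTGGCAC. The same CTGGCAC lies 68 bases before this start and 9 bases before the most upstream start, at position 30914922. The middle and upstream starts lie 536 and 595 bases from the 5′ end of the listed Mag transcript. The third RefSeq start, 6 bases from the listed 5′ end, with chr7:30914322-30914571 before it, has matches to the E-box alone, a motif found in 66.2% of windows. The Agt window holds TATAAA 30 bases before the start site, against 12.4% of windows, and the window before the Lhfpl3 start holds 1 GC box, against 32.7%. E-box matches are also present in the middle Mag, Agt and Lhfpl3 windows, and absent from the printed Plekhb1 window. Motif matches describe the letters of these windows and not factor binding.

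Plekhb1 had the highest abundances among the members. The skipping form ENSMUST00000107046 stood at 13.7, 18.4, 21.9 and 19.7 FPKM in control replicates 1 to 4 and at 28.7, 39.3, 67.2 and 37.2 FPKM in knockout replicates 1 to 4. The lowest knockout library was above the highest control library, and knockout replicate 3 stood well above the other knockouts. Group means were 43.1 ± 16.7 FPKM in knockout and 18.4 ± 3.46 FPKM in control libraries (SD, n = 4 each), a ratio of 2.34. On the log2(FPKM + 0.5) scale, which understates the change of low transcripts, the difference was 1.15 with an SE of 0.291, and 0.92 without knockout replicate 3.

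The including form ENSMUST00000107045 was lower in level and showed the same direction. Its values were 2.08, 2.06, 4.77 and 1.85 FPKM in control replicates 1 to 4 and 9.69, 6.68, 9.40 and 7.17 FPKM in knockout replicates 1 to 4. Control replicate 3 stood apart from the other controls, yet it remained below the lowest knockout library. The means were 8.23 ± 1.53 FPKM in knockout and 2.69 ± 1.39 FPKM in control libraries (SD, n = 4 each), a ratio of 3.06. The log2 difference was 1.52 with an SE of 0.300.

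Together the listed Plekhb1 forms summed to 51.3 ± 17.2 FPKM in knockout and 21.1 ± 4.47 FPKM in control libraries (SD, n = 4 each), a log2 difference of 1.23 with an SE of 0.264. These sums leave out the 10 annotated Plekhb1 transcripts that are not listed and are no gene totals. The including form made up 13.1%, 10.1%, 17.9% and 8.58% of the sum in control replicates 1 to 4 and 25.3%, 14.5%, 12.3% and 16.1% in knockout replicates 1 to 4. Both listed forms were higher in the knockout, and the groups overlapped in this share. The exon is carried by 4 annotated transcripts, not all of them listed, so exon use of the whole gene was not measured. In these bulk libraries more cells of a type and more RNA per cell cannot be told apart.

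**Figure D2:**
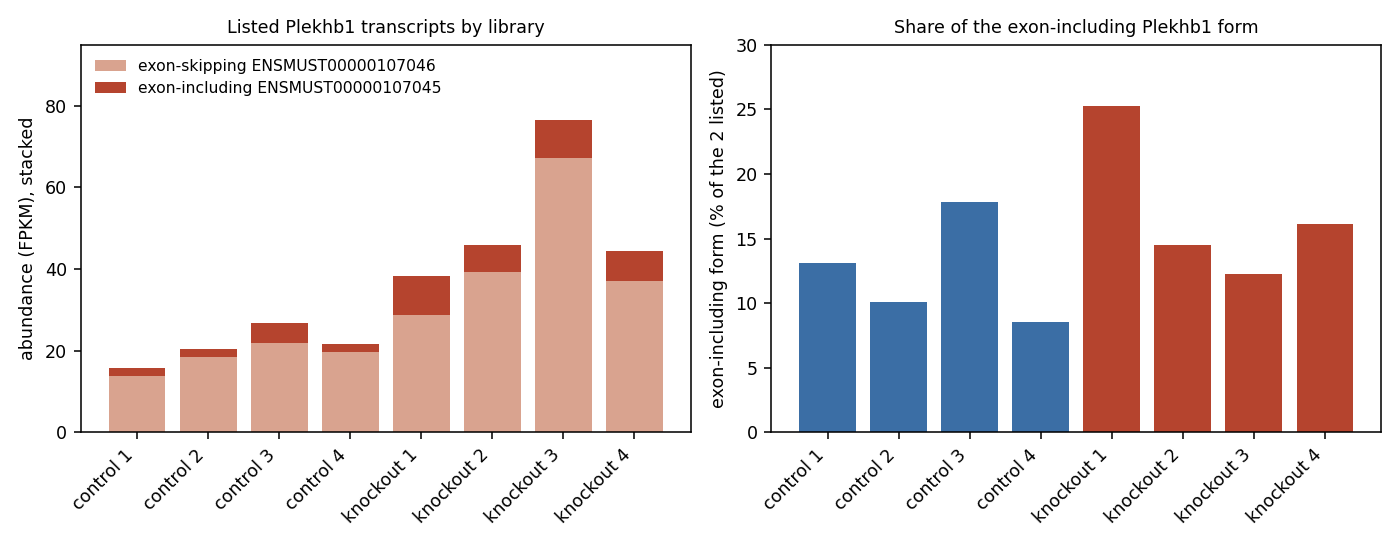
The left panel stacks the abundance (FPKM) of the exon-skipping and exon-including Plekhb1 forms in each of the 8 libraries, and the right panel gives the including form as a percentage of both. Summed values run from 15.8 to 26.7 FPKM in the controls and from 38.3 to 76.6 FPKM in the knockouts, while the percentages of the groups overlap.

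Mag differed in the opposite direction from Plekhb1, although both are genes of myelinating cells. The listed S-MAG transcript ENSMUST00000040548 stood at 2.53, 2.97, 2.67 and 2.59 FPKM in control replicates 1 to 4 and at 0.619, 1.98, 0.805 and 2.42 FPKM in knockout replicates 1 to 4. Controls lay close together, whereas among the knockouts replicates 1 and 3 were low and replicates 2 and 4 were near the controls. The highest knockout value was below the lowest control value by a ratio of 1.04. Means were 1.46 ± 0.883 FPKM in knockout and 2.69 ± 0.197 FPKM in control libraries (SD, n = 4 each). The log2 difference was -0.82 with an SE of 0.343, and it ranged from -1.05 to -0.59 as single libraries were left out. Knockout replicates 1 and 3, low for Mag, held the highest values of the including Plekhb1 form. The more abundant skipping form was lowest of the knockouts in replicate 1, at 28.7 FPKM, and highest in replicate 3, at 67.2 FPKM. The 2 forms thus showed no shared relation to Mag across the knockouts.

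Lhfpl3 was near 0 in every control library. ENSMUST00000197992 stood at 0.0131, 0.0520, 0.00839 and 0.0506 FPKM in control replicates 1 to 4 and at 1.08, 2.04, 1.07 and 0.572 FPKM in knockout replicates 1 to 4. Groups were separated by a ratio of 11.0 between the lowest knockout and the highest control, the widest gap among the 4 members. The means were 1.19 ± 0.613 FPKM in knockout and 0.0310 ± 0.0235 FPKM in control libraries (SD, n = 4 each). The log2 difference was 1.60 with an SE of 0.257 at a pseudocount of 0.5, and 3.20 at a pseudocount of 0.1, so its size is set largely by that choice. Its locus overlaps 6 other annotated genes, 2 on the same strand and 4 on the opposite strand. The spans of A930003O13Rik, on the opposite strand, and 6030443J06Rik, on the same strand, both cover the first exon. With strand use in counting not given in the sources used here, reads of these genes cannot be told apart from those of Lhfpl3 where exons overlap. For genes on the same strand, knowing the strand use would not change this.

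The model at Agt, MERGE.25391.1 (chr8:124556534-124569578, minus strand), shares the 3′ end of the only annotated Agt transcript, ENSMUST00000063278. Its 5′ end lies 128 bases inside the annotated start, beyond the 31-base first exon and 98 bases into the first intron. Its abundance was 0.0276, 2.09, 0.657 and 2.30 FPKM in control replicates 1 to 4 and 3.54, 2.41, 6.18 and 9.29 FPKM in knockout replicates 1 to 4. Controls spread widely, and the lowest knockout was above the highest control by a ratio of only 1.05. The means were 5.36 ± 3.06 FPKM in knockout and 1.27 ± 1.10 FPKM in control libraries (SD, n = 4 each), and the log2 difference was 1.86 with an SE of 0.685, or 1.37 without control replicate 1. Its exons are unknown here, and the annotated Agt transcript was not analysed here, so this value is not the level of Agt. No other gene in the annotation overlaps this model or the listed Plekhb1 and Mag transcripts.

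**Figure D3:**
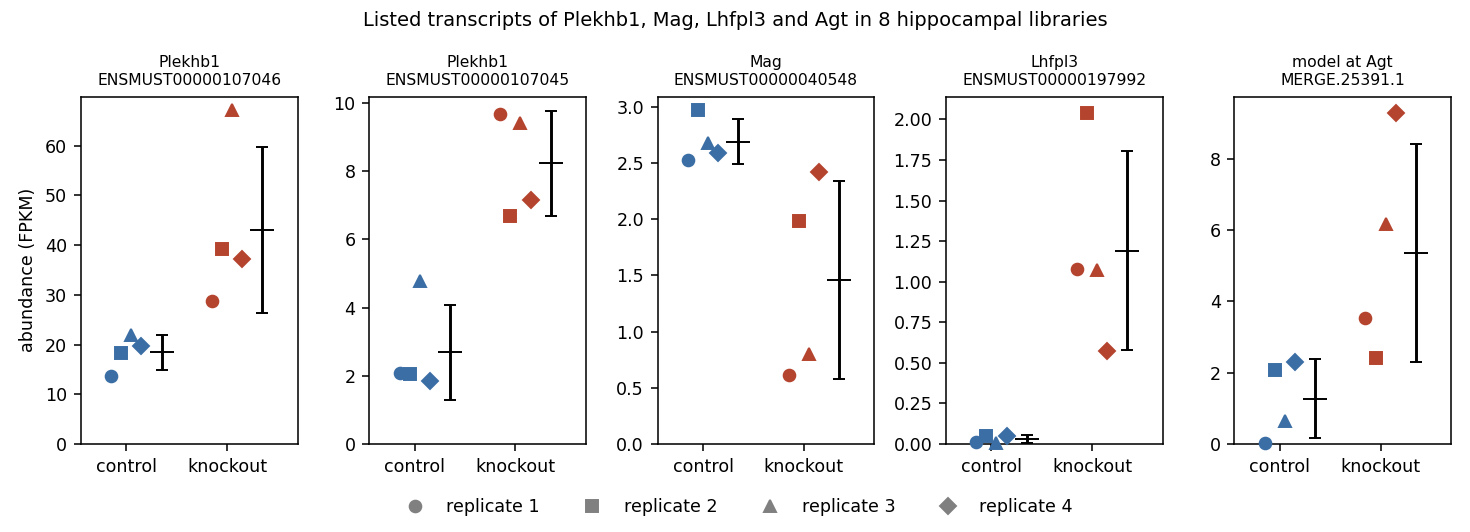
Abundance (FPKM, linear axis from 0) of the 4 member transcripts and the model at Agt in each library, with marker shapes for replicates 1 to 4 and black bars for the mean ± SD of 4 libraries. No panel shows overlap between the groups; Mag is the one transcript with lower knockout values.

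Of the 4 members, 3 were higher and 1 was lower in the knockout, and in each the libraries of both groups did not overlap. Among all listed transcripts 36.1% had groups that did not overlap, 40.5% of those higher and 31.9% of those lower in the knockout. Since the authors' listing used the same libraries, nothing is read from these counts. In the authors' deposited table the adjusted p-values were 0.261 for Lhfpl3, 0.579 for the including Plekhb1 form, and 0.888 for the skipping Plekhb1 form, for Mag and for the model at Agt. An authors' adjusted p under 0.05 was given to 15 transcripts, 0.0143% of those tested, and none of the members was among them. Mag lay nearest the listing limits of the members, with an unadjusted p of 0.0286 and a log2 fold change of -1.17 in the authors' deposited table. Transcripts just outside the limits were not analysed here.

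Set against all listed transcripts, the skipping Plekhb1 form was unusual for its level and not for its difference. Its mean over the 8 libraries, 30.8 FPKM, was at or above that of 99.0% of listed transcripts, and its log2 difference was at or above that of 54.7% of those higher in the knockout. The median log2 difference was 1.08 for the 815 listed transcripts higher in the knockout and -1.03 for the 864 lower ones. Lhfpl3, at a mean of 0.611 FPKM, was below the median level of 1.03 FPKM of transcripts higher in the knockout. Mag had a smaller difference than most of the lower ones, at or above 31.4% of them in size.

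**Figure D4:**
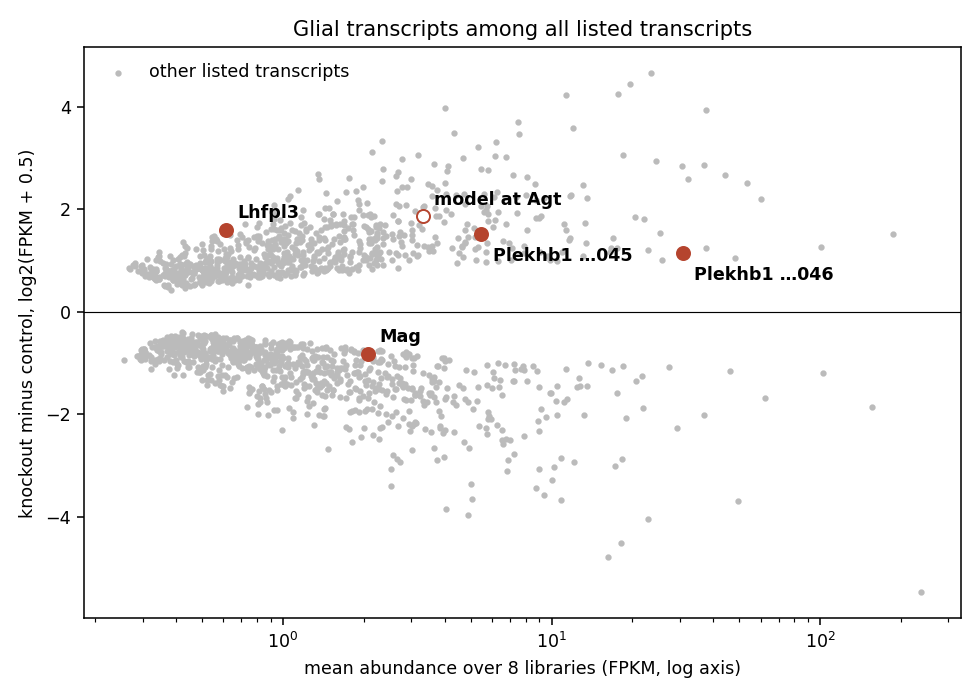
Each point is a listed transcript, with its mean abundance over 8 libraries on a log axis (FPKM) and its knockout minus control difference on the log2(FPKM + 0.5) scale. Members are filled red and the model at Agt is open; the gap around 0 comes from the authors' selection on fold change, and Mag is the only member below 0.

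The myelin, oligodendrocyte lineage, precursor and astrocyte lists, of 83 genes together, had 7 listed transcripts of 5 genes by symbol, 3 higher and 4 lower. These are 1.37% of the 511 transcripts that GENCODE M21 annotates for the lists, beside 0.801% for all 141767 annotated transcripts. Of the 7, 4 are the members themselves. None of the defining markers Mbp, Mog, Olig2, Pdgfra, Cspg4, Gfap or Aqp4 was among the listed transcripts, so the cell type behind the members' RNA could not be checked against them.

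The other 3 glial transcripts were all lower in the knockout. Mfge8, which encodes a secreted phosphatidylserine-binding protein of astrocytes, had 2 of them. Its coding transcript ENSMUST00000032825 stood at 30.8, 2.98, 3.64 and 3.97 FPKM in control replicates 1 to 4 and between 0.366 and 2.68 FPKM in the knockouts, with control replicate 1 far above the rest. The retained-intron transcript ENSMUST00000205649 of Mfge8 averaged 0.818 ± 0.119 FPKM in knockout and 2.89 ± 1.73 FPKM in control libraries (SD, n = 4 each), and the groups overlapped. Zfp536, a zinc finger repressor in the oligodendrocyte lineage list, had ENSMUST00000176205 at 0.266 ± 0.400 FPKM in knockout and 1.10 ± 0.778 FPKM in control libraries (SD, n = 4 each), also with overlap. When merged models were named by position, the astrocyte list gained the model at Agt and 1 of Gpc5, a glypican. The Gpc5 model MERGE.8491.5 was higher in the knockout, at 5.45 ± 3.99 against 1.23 ± 1.42 FPKM (SD, n = 4 each), with overlapping groups.

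Around Agt, the renin-angiotensin list of 18 genes had 1 listed transcript by symbol. That is 1.06% of the annotated transcripts of the list, beside 0.801% of all annotated transcripts. Anpep, an aminopeptidase that trims angiotensin peptides and is also found on pericytes, had ENSMUST00000049004 at 1.20, 1.30, 1.73 and 1.52 FPKM in knockout replicates 1 to 4. In control replicates 1 to 4 it was listed at 0, 0, 1.09 and 1.25 FPKM, so the groups overlapped. No renin, converting enzyme or angiotensin receptor transcript was listed. For Mag, the list of sialic acid-binding and axon-glia contact genes had 18 members, and Mag was the only one listed. Its transcript is 1.03% of the annotated transcripts of that list. Lhfpl3 was the only listed member of its family, of which 6 of 7 symbols were found in the annotation. Its transcript is 4.55% of the 22 annotated for the family. Each of these shares rests on 1 listed transcript, so nothing is read from them.

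Markers of other cell types were listed in both directions beside these genes, and their part in the results was not tested. The microglial receptor gene Csf1r had ENSMUST00000025523 lower in the knockout, between 0.0140 and 1.57 FPKM in the knockouts and at 21.3, 2.53, 1.64 and 1.19 FPKM in control replicates 1 to 4, so the groups overlapped. Endothelial and mural markers had 3 of 13 genes listed, Ly6c1, Acta2 and Tagln, all higher in the knockout, which is 6.38% of the annotated transcripts of the list beside the 0.801% of all. Acta2, at 6.23 to 8.98 FPKM in the knockouts and 1.36 to 4.43 FPKM in the controls, and Tagln, at 0.290 to 0.823 and 0.0723 to 0.189 FPKM, had groups that did not overlap, while those of Ly6c1 overlapped. The 3 transcripts had sums from 10.1 to 17.8 FPKM in the knockouts and from 1.78 to 11.4 FPKM in the controls. Ependymal, choroid plexus and meningeal markers had 2 of 11 genes listed by symbol, Serping1 and Col1a2, both higher and 3.70% of the annotated transcripts, with sums from 3.65 to 5.06 FPKM in the knockouts and from 0.347 to 3.21 FPKM in the controls. Serping1 had groups that did not overlap, at 1.03 to 1.96 FPKM and 0.346 to 1.00 FPKM, and those of Col1a2 overlapped. Neuronal and hippocampal markers had 1 of 14 genes listed by symbol, Mpped1, or 1.27% of the annotated transcripts, at 48.8 to 80.5 FPKM in the knockouts and 15.2 to 81.0 FPKM in the controls. Naming merged models by position added 1 higher and 1 lower model of the ependymal gene Foxj1, and 1 lower model each of Rbfox3, Grik4 and Prox1.

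Transcripts with the most similar profile over the 8 libraries came from genes outside the glial lists. Likeness was the root mean square difference between log2(FPKM + 0.5) profiles, each centred on its own mean, among listed transcripts that averaged 1 FPKM or more. Only 7 glial list transcripts, members and merged models included, reached that mean, so few glial neighbours were possible. For the including Plekhb1 form the closest was Rps15 ENSMUST00000068408, of a small ribosomal subunit protein, at 0.165, against a median of 1.32 over 793 transcripts. Actg1 (0.303), of cytoplasmic actin, and a Dzank1 model (0.318) followed. For the skipping form the closest were Kif1c (0.231), a kinesin motor, a Puf60 model (0.243) and Rnf123 (0.314), against a median of 1.20.

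For Lhfpl3 the closest were Spata13 (0.317), Itgb8 (0.351), an integrin subunit, and Arl10 (0.352), against a median of 1.33. For Mag they were 1600014C10Rik (0.284), Siah1b (0.286) and Dab1 (0.293), the last an adaptor of reelin signalling, against a median of 1.20. The model at Agt had no neighbour that close, with Pwwp2a (0.474), Kif3c (0.497) and Klhdc10 (0.534) nearest and a median of 1.62. The Plekhb1 forms differed from each other by 0.467, each Plekhb1 form differed from Lhfpl3 by 0.525 or 0.517, and Mag stood between 1.14 and 1.35 from the other 3 members. These distances follow the group difference by which every transcript was listed and are a description only. Each neighbour is a single transcript and does not stand for its gene. Rps15, Puf60, Itgb8, 1600014C10Rik and Pwwp2a also had other listed transcripts that differed in the opposite direction.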

How the data were processed

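Hippocampal total RNA was extracted with Trizol and made into libraries with a NEBNext Ultra kit, per the labels' protocols. HISAT2, Cuffdiff and the mm10 build are named per the submitters' processing notes, without versions. The authors deposited 1 selected table of transcripts. Its abundances carry no unit and are taken as FPKM, and the log2 fold changes and p-values in it are also the authors' deposited values, from a test not given in the sources used here.

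Groups came from the titles. Means, SDs, and differences of mean log2(FPKM + 0.5) with SE were computed per transcript with Python 3.11.15, numpy 2.4.6 and pandas 2.3.3, and plotted with matplotlib 3.10.9. No test was made, because the members were chosen on this contrast. The computation was checked on simulated data. Of 541 merged models, 103 took the symbol of their locus and 291 a gene with at least 50% reciprocal overlap on the same strand. The gene lists, the members and the rule for named genes (members, the 3 most similar transcripts of each, and listed genes of the lists) were chosen with earlier results of these data known. The set of motifs was chosen after the table was examined. Alternatives were other pseudocounts, scalings, a filter on the mean and each library left out. Depth is unknown. Results for a few items are not reported here.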

Additional observations from a re-analysis of the deposited data

Results flagged for a closer look

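In 1 of 10 groups of 4 libraries examined for the members and the model at Agt, a library lay far from the other 3. The including Plekhb1 form ENSMUST00000107045 stood at 4.77 FPKM in control replicate 3, and the gap to the next control was 0.922 of the range of that group. About 1 in 20 such groups would show this by chance. Without this library the log2 difference of the including form was 1.79.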

How the results depend on the processing

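No paired analysis was possible because no pairing of control and knockout libraries is given in the sample labels. The results come from no test, since the members were listed by the authors for the same contrast. Directions held for the 4 members and the model at Agt under every alternative run. As their groups do not overlap, leaving out a library or changing the pseudocount could not have reversed them. The Lhfpl3 log2 difference moved by more than its spread between replicates, to 3.20 at a pseudocount of 0.1 and 1.05 at a pseudocount of 1; the low control values make it depend on this choice. The other 74 of 76 log2 differences moved by less than that spread. These include the values under the filter on the mean, which leaves the difference of a kept transcript unchanged. With single libraries left out, the log2 difference ranged from 0.92 to 1.32 for the skipping Plekhb1 form, from 1.40 to 1.79 for the including form, from 1.02 to 1.35 for their sum, from 1.39 to 1.80 for Lhfpl3, from -1.05 to -0.59 for Mag and from 1.37 to 2.18 for the model at Agt. A filter at a mean of 1 FPKM removed Lhfpl3 and left 2 members higher and 1 lower, and glial list transcripts numbered 5 with it and 9 with merged models named. The most similar transcripts depended on the settings: with no filter on the mean, 0 of 3 stayed for Mag, and 1 of 3 for Lhfpl3 and for the including Plekhb1 form. With a pseudocount of 0.1, 1 of 3 stayed for Lhfpl3 and for the model at Agt.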
